A study of Mus musculus with 4 samples.

Results

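Rad51b and 5 relatives in its family of recombination proteins (Rad51c, Rad51d, Xrcc2, Xrcc3 and Dmc1) were measured in liver RNA of mice fed a conjugated linoleic acid. Probes were matched to the 6 genes by RefSeq accession. Each gene had 1 probe with 1 spot per array, and all 6 passed the filter on dim probes, among 20089 genes and unnamed probes tested. Rad51b was selected on its measured ratio of CLA over control, since it was called in the comparison of diets across all genes, and its relatives were taken by family. The diet values of the 6 genes are therefore a description and carry no test.

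The mice were males of a polygenic obese line, fed for 14 days on trans-10, cis-12 conjugated linoleic acid (CLA) at 1% of the diet, or on linoleic acid at 1% as the control. Pooled RNA of 4 or 5 mice per diet was labelled directly and hybridised to 4 two-colour Agilent arrays, each pairing a CLA pool with a control pool. Arrays 1 and 2 carried CLA in Cy5, the red dye, and arrays 3 and 4 carried it in Cy3, the green dye. Whether a pool was used on more than 1 array is unstated, and the design text counts 1 replicate per experiment, so the spread between arrays may be technical.

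Homologous recombination repairs a broken DNA molecule by copying an intact one. A protein filament on single-stranded DNA searches for the matching sequence, and the paralogs studied here help to load and stabilise it. RAD51B, RAD51C, RAD51D and XRCC2 form one paralog complex, and RAD51C and XRCC3 form another. DMC1 is the recombinase of meiosis, at work in germ cells. Recombination is used mostly by cells that copy their DNA, and most hepatocytes of the adult liver are not dividing. In whole liver RNA, fewer cells of a type and less RNA per cell cannot be told apart.

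In the RefSeq gene table of the GRCm38.p6 assembly, Rad51b spans 550979 bases of chromosome 12, whereas the 5 relatives span 10702 to 43663 bases. Xrcc3 is also on chromosome 12, Rad51c and Rad51d are on chromosome 11, Xrcc2 is on chromosome 5 and Dmc1 on chromosome 15. RefSeq start-site windows (250 bases before to 50 after the start) were at hand for 4 of the 6 genes, in 6 windows. The first Rad51b window, chr12:79297032-79297331 on the plus strand, and the Xrcc3 window, chr12:111813830-111814129 on the minus strand, are shown because these genes differed most in diet effect. Both are printed 5′ to 3′ as transcribed, and the capitals mark matches on either strand to the CCAAT box (CCAAT) and the GC box (GGGCGG).
Rad51b: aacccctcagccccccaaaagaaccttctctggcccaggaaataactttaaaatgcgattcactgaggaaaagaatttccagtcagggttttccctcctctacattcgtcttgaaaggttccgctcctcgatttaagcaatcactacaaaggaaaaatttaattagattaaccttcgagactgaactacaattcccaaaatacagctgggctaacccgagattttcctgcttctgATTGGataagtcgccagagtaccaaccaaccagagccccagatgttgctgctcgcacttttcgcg
Xrcc3: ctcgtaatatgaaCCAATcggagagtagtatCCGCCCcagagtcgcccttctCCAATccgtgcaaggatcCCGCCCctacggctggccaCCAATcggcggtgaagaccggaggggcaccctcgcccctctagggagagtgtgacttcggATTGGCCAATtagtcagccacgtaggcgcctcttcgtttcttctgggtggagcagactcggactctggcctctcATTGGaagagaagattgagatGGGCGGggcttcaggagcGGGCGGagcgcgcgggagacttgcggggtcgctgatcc

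The Rad51b window was 45% G and C, held 1 CCAAT match and held no match to the GC box, the nuclear receptor half-site AGGTCA or the E2F-like sequence TTTGGCGC. A second Rad51b window, chr12:79297101-79297400, held the same CCAAT match and 1 match to AGGTCA. The Xrcc3 window was 61.3% G and C, with 6 CCAAT and 4 GC box matches, of which 2 CCAAT matches lie end to end without sharing a base. Both Rad51c windows lacked CCAAT and held 2 and 1 GC box matches, and the Dmc1 window (69% G and C) held 3 GC box matches and 1 match to TTTGGCGC. Among 32851 mouse windows of that length, 37.4% held CCAAT, 35.7% GGGCGG, 16.3% AGGTCA and 0.514% TTTGGCGC. These matches describe letters only.

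Rad51b, whose product joins the other paralogs in filament assembly, stood higher in CLA than in control liver on every array. As measured after loess, its log2 ratio of CLA over control was 0.20 and 0.39 on arrays 1 and 2 and 0.99 and 0.94 on arrays 3 and 4. The ratio was thus above 0 in both dye orientations but larger where CLA was in Cy3, with means of 0.96 against 0.30. Ratios above 0 on all 4 arrays were found for 910 of 19841 genes measured on every array (4.59%), and Rad51b was the only 1 of the 6 family members among them. On single arrays it exceeded 89.9%, 95.6%, 98.3% and 97.3% of the genes tested, in array order.

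With the dye effect of -0.33 taken out, the Rad51b log2 ratios were 0.53, 0.73, 0.65 and 0.60. That step ties the mean of each orientation to the same value, so only the spread within an orientation remains. The fitted diet effect was 0.63 ± 0.06 (SE, n = 4 arrays; 95% interval 0.48 to 0.77), a 1.55-fold higher level with CLA, and ranked 28 from the top. The limma adjusted p that chose the gene was 0.043. At that threshold of 0.05, 14 genes or probes were called in either direction (0.0697%) and 7 of them rose (0.0348%).

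**Figure D1:**
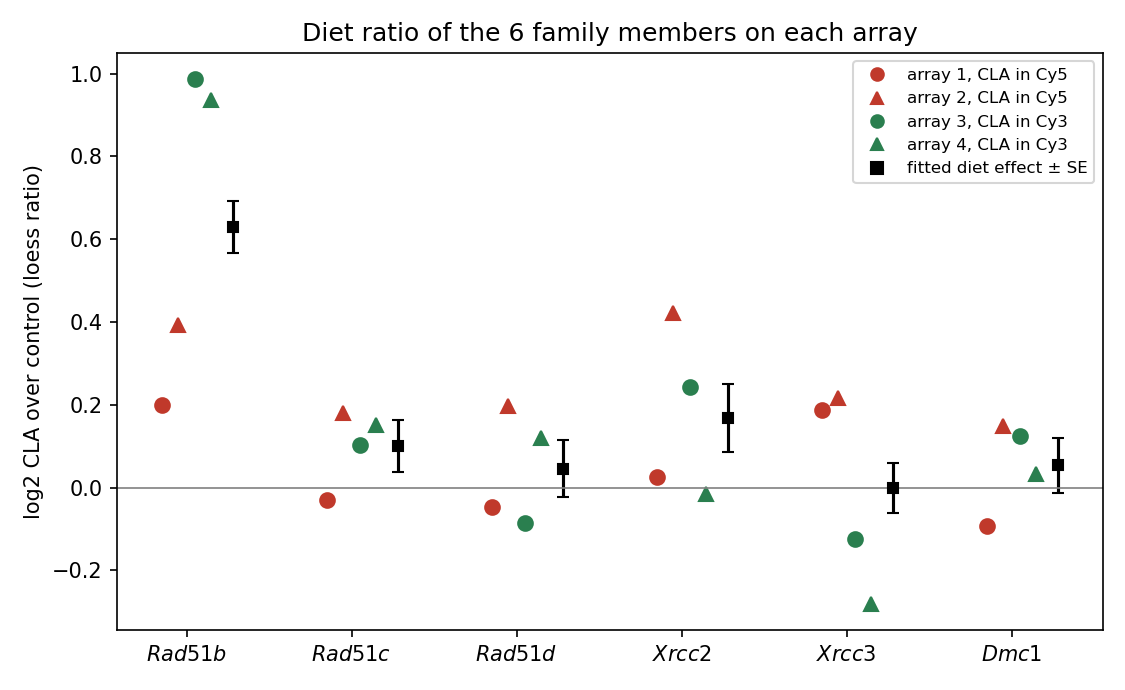
Log2 ratio of CLA over control as measured after loess (vertical axis) for the 6 genes (horizontal axis), with red (CLA in Cy5) and green (CLA in Cy3) points for the 4 arrays and a black square for the fitted diet effect ± SE. Rad51b lies between 0.20 and 0.99, with its highest points on the 2 arrays that carried CLA in Cy3, whereas each relative has at least 1 array below 0.

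The signals show what lies behind these ratios. Before normalization, the Rad51b spot stood above local background by 481 and 609 units in the CLA channel of arrays 1 and 2, and by 799 and 668 on arrays 3 and 4. The control channel stood at 659, 673, 585 and 253 units. The unnormalized quotient of CLA over control was 0.731 and 0.905 on arrays 1 and 2, where CLA was in Cy5, and 1.37 and 2.63 on arrays 3 and 4. Its direction thus followed the dye in these signals, and the ratios above 0 on arrays 1 and 2 appear after dye normalization. Such quotients also carry any difference in brightness between the channels of a whole array. Those of the relatives, from far dimmer spots, were 0.294 to 0.551 on array 1 and 1.43 to 2.97 on array 4. On array 2 they were 1.01 to 1.52, and on array 3 0.991 to 4.14.

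After loess and quantile normalization of average intensities between arrays, the log2 level of Rad51b in CLA liver was 9.55, 9.37, 9.61 and 9.50 on arrays 1 to 4. In control liver it was 9.35, 8.98, 8.63 and 8.56. The lowest CLA level lay just above the highest control level, so the diets did not overlap, as for 85 of 19841 genes (0.428%). The control levels were the more scattered, at 8.88 ± 0.36 against 9.51 ± 0.10 for CLA (SD, n = 4 each). These SDs mix the dyes: control means were 9.16 in Cy3 and 8.59 in Cy5, and CLA means 9.56 and 9.46. Compared within a dye, CLA exceeded control by 0.86 in Cy5 and by 0.39 in Cy3 (log2). The levels did not overlap in either dye, with 2 samples of each diet per dye. Within a dye the diets lay on different arrays, so diet and array cannot be told apart there. The mean of these differences is the fitted diet effect, so they are no separate check of it. CLA lay above control in both dyes for 597 of 19841 genes (3.01%). Of the relatives, Rad51c and Xrcc2 lay above control without overlap in Cy3 only, and Dmc1 in Cy5 only. The share of all genes without overlap in a single dye was not computed, so nothing is read from these.

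**Figure D2:**
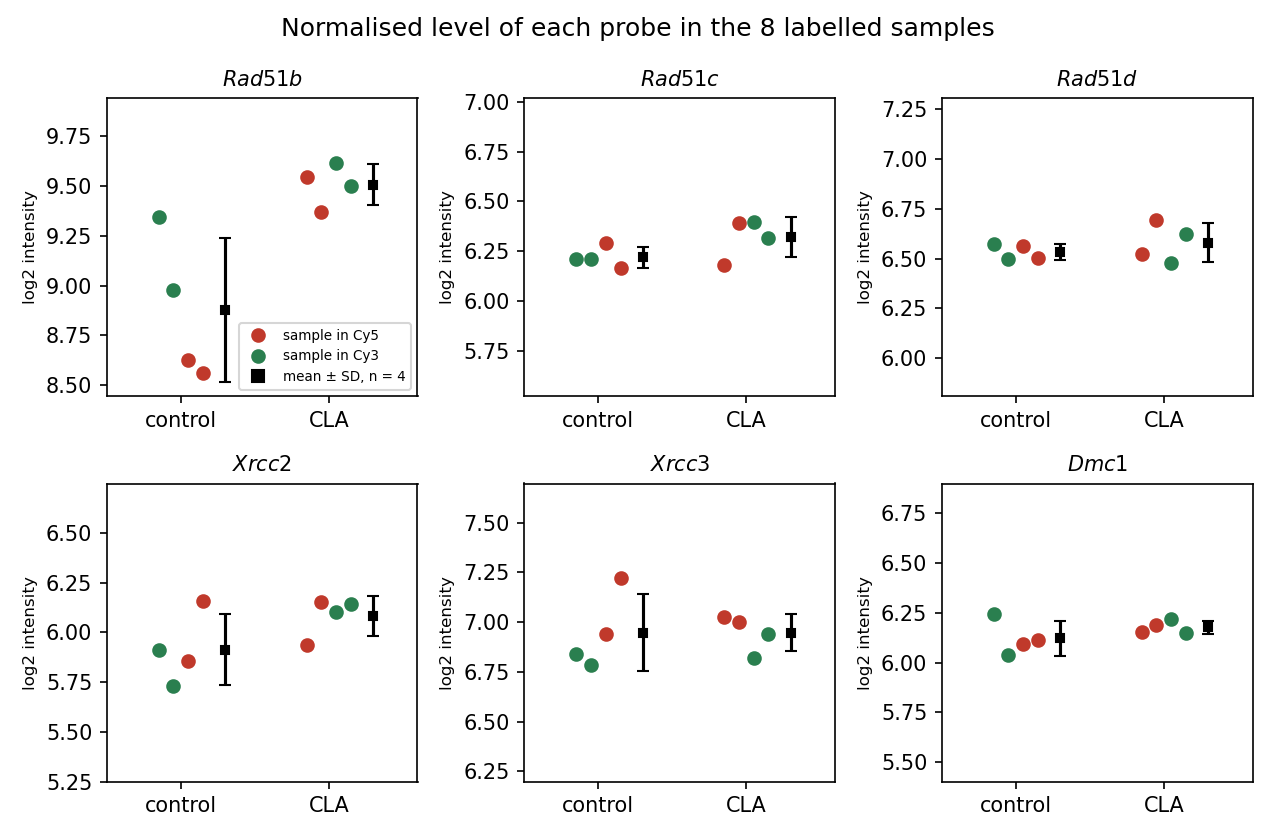
Normalized log2 intensity of each of the 6 genes in control and CLA liver, 1 panel per gene with the same vertical span, with points for the 4 arrays coloured by dye and black squares for the mean ± SD (n = 4). The 4 CLA points of Rad51b lie between 9.37 and 9.61 and above all 4 control points, whereas the diets overlap in the panels of the other 5 genes.

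The relatives' probes gave far dimmer spots. Rad51b was brighter than 88.6% of the genes tested and well above background in 8 of 8 channels. The relatives stood only 14.1 to 135 units above local background, whose median was 285 to 321 units per channel. Added to every corrected signal, the offset of 50 pulls the ratios of such dim spots toward 0, so the small values below understate any change. Brightness here says how near a probe was to background, not which transcript was the more abundant, since each probe binds with its own strength.

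Rad51c is the paralog shared by both complexes. Its log2 ratio of CLA over control was -0.03, 0.18, 0.10 and 0.15 on arrays 1 to 4, above 0 on 3 arrays. The fitted effect was 0.10 ± 0.06 (SE; 95% interval -0.04 to 0.25). Its CLA level of 6.32 ± 0.10 and control level of 6.22 ± 0.05 (log2, SD, n = 4) overlapped, although 3 CLA values lay above all control values. The probe was well above background in 6 of 8 channels.

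Rad51d bridges RAD51C and XRCC2 in the first complex. Its ratios of -0.05, 0.20, -0.09 and 0.12 (log2) changed sign between arrays within each orientation. The fitted effect was 0.05 ± 0.07 (95% interval -0.11 to 0.21), and the probe was well above background in all 8 channels. Levels overlapped, at 6.58 ± 0.10 with CLA and 6.53 ± 0.04 in control liver.

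Xrcc2, the partner of RAD51D, had the dimmest probe, brighter than only 0.667% of the genes tested. Its log2 ratios were 0.03, 0.42, 0.24 and -0.01 on arrays 1 to 4, with array 2 the highest. The probe was well above background in the CLA channel of arrays 2 and 4 and in no control channel. It thus passed the filter only through its CLA channels, and no fold is given for it. The measured levels were 6.08 ± 0.10 and 5.91 ± 0.18 (log2) and overlapped. The fit gave 0.17 ± 0.08 (95% interval -0.02 to 0.36).

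Xrcc3, which pairs with RAD51C in the second complex, had ratios of 0.19, 0.22, -0.12 and -0.28 (log2). The sign followed the dye, up with CLA in Cy5 and down with CLA in Cy3. The fitted diet effect was 0.00 ± 0.06 (95% interval -0.14 to 0.14) beside a dye effect of 0.20. Mean levels were equal to 2 decimals, at 6.95 in both diets, with SDs of 0.09 for CLA and 0.19 for control. This probe was the brightest of the relatives, above 41.9% of the genes tested, and well above background in 8 of 8 channels.

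Dmc1, the meiotic recombinase, was near the background, brighter than 5.79% of the genes tested and well above background in 6 of 8 channels. Its log2 ratios were -0.09, 0.15, 0.12 and 0.03 on arrays 1 to 4. The fitted effect was 0.05 ± 0.07 (95% interval -0.10 to 0.21), and the levels of 6.18 ± 0.03 with CLA and 6.12 ± 0.09 in control liver overlapped.

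Set against the median of its 5 relatives on the same array, Rad51b was higher by 0.23 and 0.20 on arrays 1 and 2 and by 0.88 and 0.90 on arrays 3 and 4 (log2). All 5 relatives lay below it on arrays 1, 3 and 4. On array 2, where the relatives ranged from 0.15 to 0.42, Xrcc2 lay above it. The gap was thus small on the arrays with CLA in Cy5 and several times larger on those with CLA in Cy3. The relatives' fitted effects had a median of 0.05, with 4 of 5 above 0, beside a median of 0.01 and 52.3% above 0 over all genes tested. The 4 include Xrcc2, the highest at 0.17. It passed the filter only through its CLA channels, which favours a value above 0.

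How the values were made mattered most for the dimmest probe. With the scanner's own processed signals, which carry no offset, the log2 ratios of Xrcc2 were 0.38, 1.39, 1.18 and -0.05. The fit then gave 0.72 ± 0.27 for Xrcc2, a value that rests on control channels not well above background, and 0.69 for Rad51b. Xrcc2 was high on arrays 2 and 3 and at or below 0.38 on the other 2. The same signals gave Rad51b 0.23, 0.42, 1.06 and 1.04, close to its loess values. The fitted value of Rad51b lay above those of all relatives measured in 14 of 16 other ways of processing. The processed signals, and the deposited series matrix that holds their ratios, were the exceptions, through Xrcc2.

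The adjusted p of Rad51b passed 0.05 in 7 of those 16 settings. Its effect stayed between 0.41, with no background subtraction, and 0.69, and above 99.2% or more of the genes tested in each setting. The settings re-use the arrays that chose the gene, and several return the same value, so they are not independent checks. Without array 2, which was extracted from its image on another day than the other 3, the effect was 0.58 and the limma adjusted p 0.082. The dye effect was also uneven between arrays: each array's ratios had a slope of 0.78 and 0.73 (arrays 1 and 2) or 1.18 and 1.30 (arrays 3 and 4) on the mean dye effect of the genes. Once the dye effect was made equal by subtraction, a step chosen after the data were seen, Rad51b stood at 0.55 with an adjusted p of 0.090.

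**Figure D3:**
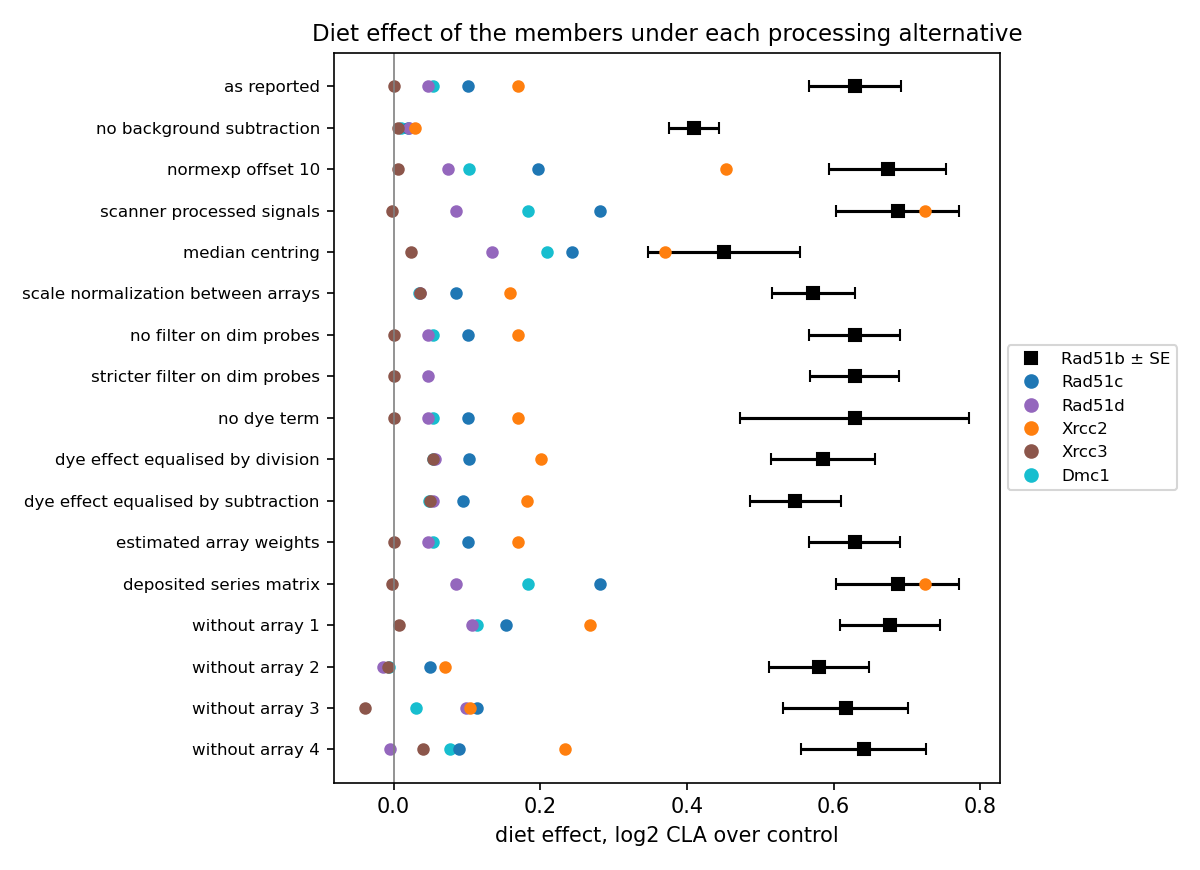
Fitted log2 diet effect of the 6 genes (horizontal axis) under each way of processing the arrays (vertical axis), with black squares ± SE for Rad51b and coloured points for its relatives. Rad51b stays between 0.41 and 0.69, while Xrcc2 moves from 0.03 without background subtraction to 0.72 with the scanner's processed signals.

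In the authors' deposited table of 775 significant probes, of which 364 were higher, Rad51b was the only family member listed. Its linear ratio there was 1.85, rank 54 by ratio, beside the smaller 1.55-fold fitted here. The p-value there was 0.00002. How that p-value was computed is unstated, and the table was made from the same arrays.

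Genes that act with the family in recombination did not pass the test. Brca2, a mediator of filament loading, had a diet effect of 0.01 ± 0.07 (log2, limma adjusted p = 0.971). Rad52, an annealing factor, stood at 0.02 ± 0.06 (adjusted p = 0.911), and Rad54l, a motor that acts on the filament, at -0.11 ± 0.08 (adjusted p = 0.506). Brca1 and Palb2 had no probe under their symbols.

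Wider DNA repair was read from 7 lists of 188 genes, of which 118 had a tested probe. One of these rose, the germ-cell gene Prm1, and 0 fell, in limma at an adjusted p under 0.05, with 11 of 118 at an unadjusted p under 0.05, beside 15.9% (3198) of the 20089 genes and probes tested. The median effect over the 118 genes was 0.01, with 61 above 0, and the median over all genes tested was also 0.01. Prm1 was also the only 1 with an effect as large as that of Rad51b. Of 117 list genes measured on all 4 arrays, 6 had ratios above 0 on every array (5.13%, beside 4.59% of all genes), and each of those 6 missed the test.

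Of the homologous recombination list, 21 of 43 genes were tested and 0 passed, with a median of -0.03 (10 above and 11 below 0). Rpa1, a subunit of the protein that covers single-stranded DNA, stood lowest at -0.27 ± 0.11 (adjusted p = 0.285). Top3a, a topoisomerase that resolves joined molecules, stood highest at 0.16 ± 0.08 (adjusted p = 0.339). Fignl1, an ATPase of recombination, was above 0 on every array, at 0.15 ± 0.07 (adjusted p = 0.314).

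Of the meiotic and germ-cell list, 21 of 28 genes were tested, 15 above and 6 below 0, with a median of 0.04. Prm1, a protamine that packs sperm DNA, rose by 0.66 ± 0.07 (limma adjusted p = 0.043). Its ratios were -0.55, -0.30, 1.72 and 1.78 on arrays 1 to 4, so that, unlike those of Rad51b, they changed sign with the dye. With the dye effect made equal by subtraction, Prm1 stood at 0.40 with an adjusted p of 0.158, and without array 2 at 0.60 with 0.077. Msh5, a MutS homolog of meiotic crossing over, stood at 0.47 ± 0.10 (adjusted p = 0.114), with ratios of -1.95, -1.70, 2.48 and 3.03 that also followed the dye. Without array 3, which leaves 1 array with CLA in Cy3, it stood at 0.60. Its dye effect was -2.29, far larger than its diet effect. Its value with the dye effect made equal was not recorded, and no repair-list gene passed in that setting. Tex15, needed for meiotic repair, stood at 0.13 ± 0.06 (adjusted p = 0.322) and was above 0 on every array. Hormad1, an axis protein of meiotic chromosomes, stood at 0.14 ± 0.07 (log2, limma adjusted p = 0.350). It was the only repair-list gene in the authors' deposited table. Its ratio there was 1.40 on a linear scale, not log2, with a p-value of 0.00165 from an unstated test.

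The other repair lists held 0 called genes in limma. Of the excision and mismatch repair list, 22 of 32 genes were tested, 9 above 0, with a median of -0.01. Ddb1, a subunit of the complex that senses ultraviolet lesions, stood at 0.30 ± 0.06 (limma adjusted p = 0.129). Its ratios were -0.49 and -0.28 on arrays 1 and 2 and 0.92 and 1.03 on arrays 3 and 4. These followed the dye. Ercc5, an excision nuclease, stood at -0.16 ± 0.06 (adjusted p = 0.273), and Ercc2, a helicase, at 0.16 ± 0.07 (adjusted p = 0.334). Of the end joining list, 8 of 15 genes were tested, with a median of 0.00. The lowest limma adjusted p belonged to the polymerase Poll, at 0.14 ± 0.06 (adjusted p = 0.325). The ligase Lig3 at 0.10 ± 0.06 (0.431) and the nuclease Dclre1c at -0.08 ± 0.07 (0.573) came next. The ratios of Lig3 changed sign with the dye, at -0.28, -0.21, 0.39 and 0.49 on arrays 1 to 4. Of the Fanconi anaemia list, which covers crosslink repair, 5 of 12 were tested with a median of 0.02; Fancg stood at 0.15 ± 0.07 (adjusted p = 0.356), Fanca at -0.12 ± 0.06 (0.379) and Fancl at 0.09 ± 0.06 (0.487).

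Of the damage signalling and p53 target list, 23 of 34 genes were tested, 13 above 0, with a median of 0.02. Bbc3, a cell death gene, stood at 0.24 ± 0.06 (adjusted p = 0.159) and Sesn2, a stress-induced regulator of growth signalling, at 0.22 ± 0.06 (adjusted p = 0.166). Their ratios followed the dye, at -1.42, -1.26, 1.78 and 1.87 for Bbc3 and -0.26, -0.20, 0.72 and 0.64 for Sesn2. The antiproliferative gene Btg2 stood at -0.16 ± 0.07 (adjusted p = 0.318). Of the replication and proliferation list, 18 of 24 genes were tested, 7 above 0, with a median of -0.01. Ccnb1, a mitotic cyclin, stood at -0.21 ± 0.06 (adjusted p = 0.187), Rrm1, a subunit of ribonucleotide reductase, at -0.17 ± 0.06 (0.234) and Mcm4, of the replicative helicase, at 0.20 ± 0.07 (0.240). The ratios of Btg2, Ccnb1, Rrm1 and Mcm4 also changed sign with the dye. Neither list passed with any gene.

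**Figure D4:**
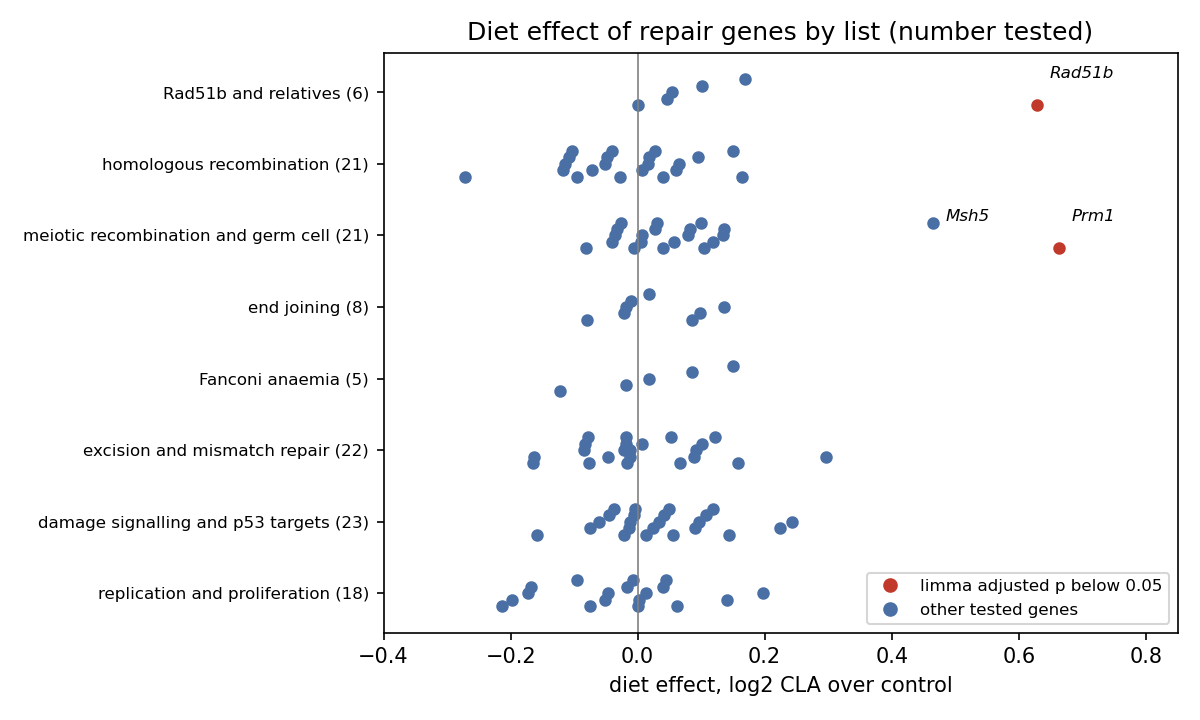
Fitted log2 diet effect of the tested genes of 7 DNA repair lists (horizontal axis, 1 point per gene and 1 line of points per list), with the 6 family members at the top and called genes in red. Nearly all points lie near 0, and Prm1 in the meiotic and germ-cell list is the only gene as high as Rad51b.

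The genes most like Rad51b in pattern were taken as those at the smallest Euclidean distance over the 4 array ratios, among 8939 named genes measured on every array. They were Retsat (distance 0.370), Gng8 (0.376), Sprr1a (0.382), Cxcl1 (0.457) and Nedd4 (0.463), beside a median distance of 1.45 over the genes compared. Retsat, which saturates retinol, had a diet effect of 0.51, Gng8, a G-protein subunit, of 0.55, and Sprr1a, a protein of the cornified envelope, of 0.68. Cxcl1, a neutrophil chemokine, stood at 0.41 and Nedd4, a ubiquitin ligase, at 0.47. The diet effect is fitted to the same 4 ratios, so effects near that of Rad51b follow from the choice. On array 1, where Rad51b stood at 0.20, Sprr1a stood at 0.13. There Retsat (-0.06), Gng8 (-0.14), Cxcl1 (-0.02) and Nedd4 (-0.20) lay below 0. Of the 3 annotated genes on either side of Rad51b, Zfp36l1 and Rdh11 had a probe. Zfp36l1, an RNA-decay factor directly after it, had ratios of 0.04, 0.28, -0.98 and -0.83 and a diet effect of -0.37 ± 0.07 (limma adjusted p = 0.082). Like Rad51b it lay above 0 on arrays 1 and 2, but it lay below 0 on arrays 3 and 4, so its sign followed the dye. It passed only with median centring in place of loess, at -0.59 with an adjusted p of 0.012, and stood at -0.24 with 0.503 once the dye effect was made equal by subtraction. Rdh11, a retinol dehydrogenase 3 genes before, stood at -0.20 ± 0.11 (adjusted p = 0.402) and was not measured on array 2.

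Across the arrays, 80.3% to 95.8% of non-control spots were well above background per channel, and the number of arrays limits the precision. The tissue label was checked with Ttr and Apoa1, secreted hepatocyte proteins, which were above background in 8 of 8 channels and brighter than 96.2% and 99.8% of the genes tested. Alb had no probe under its symbol. Marker lists of hepatocytes, macrophages, endothelium, stellate cells, bile duct, lymphocytes and exocrine pancreas held 0 called genes in limma, and the summed level of each list overlapped between diets. Of 5 stellate genes, 3 had an unadjusted limma p under 0.05, in both directions: Acta2 (0.39), Col1a2 (0.22) and Reln (-0.19). In array order, the ratios were -0.91, -0.56, 1.36 and 1.68 for Acta2 and -0.06, -0.15, 0.43 and 0.67 for Col1a2. Both changed sign with the dye, whereas Reln lay below 0 on every array. The exocrine pancreas list had 4 of 4 genes above 0, a median of 0.39, 3 genes at an unadjusted p under 0.05 (15.9% of all tested), and a summed level of 1210 to 2888 in CLA liver against 1096 to 1223 in control liver. Array 4 carried much of it: without that array the median was 0.12, with 3 of 4 genes above 0 and 0 at an unadjusted p under 0.05, and without array 3 it was 0.62. Its part in the Rad51b value was not tested.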

How the data were processed

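Agilent Feature Extraction A.6.1.1 made the scanner files, per the file headers. For each of 22393 spots per array, 1075 of them controls, the deposited files hold foreground, background and processed intensities and a log10 ratio of Cy5 over Cy3. The deposited series matrix holds log10 ratios that matched those of the processed signals turned to CLA over control; its column medians over non-control spots were 0.0042, 0.00034, -0.0063 and -0.0068, so it is not centred per array. The authors' deposited table gives a linear ratio, a signed fold score and a p-value per probe, by a test not given in the sources used here. The files name no genome build.

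Here, mean foreground was corrected with normexp (offset 50), normalized by loess with controls at weight 0 and averaged per probe after removing controls and outlier flags (limma 3.58.1, R 4.3.3). Probes well above background in a diet's channel on at least 2 arrays, and measured on at least 3, were tested; a symbol with several probes took the brightest by mean log2 intensity. Of 20868 probes, 8123 took a name from the accession, 1284 from the description column and 11461 from neither. The moderated test had a dye intercept and diet coded by orientation, with Benjamini-Hochberg adjustment over all 20089 genes and probes tested. It was run on simulated data in which every array had the same dye effect. That run therefore does not bear on the uneven dye effect of the real arrays. P-values measure only the spread between arrays, which may be technical. Levels in the text are log2 after quantile normalization of average intensities between arrays (Aquantile), which leaves the ratios unchanged.

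The members, lists, naming rule and tests were chosen with earlier results of these data known. The rule named all members, 6 partners, every called gene of a repair list (4 at most) or else its 3 lowest p-values, 5 pattern neighbours and 3 genome neighbours a side. Tex15, Hormad1 and Msh5 were named beyond it after their values were seen. The value of 1 partner is not reported here. Alternatives changed background, offset, normalization, filter, dye handling, weights and source, and left out each array. All 4 slides differ, so no slide block could be fitted.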

Additional observations from a re-analysis of the deposited data

How the results depend on the processing

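The Rad51b effect of 0.63 kept its direction in all 16 alternatives. These were not 16 independent checks, since all use the arrays on which the gene was chosen. Changing the filter, the weights or the dye term returned the same 0.63. The processed signals and the series matrix shared 1 value. The effect moved by more than the residual SD left after the dye term (0.10) in 2 settings. It was 0.41 (limma adjusted p 0.099) with no background subtraction and 0.45 (0.046) with median centring. With each array left out in turn it was 0.58 to 0.68. The adjusted p was also above 0.05 with an offset of 10 (0.329), processed signals or the series matrix (0.348), scale normalization (0.139), no dye term (0.978) and the dye effect equalised by division (0.260) or subtraction (0.090). The count of genes called in limma was 14. It was 0 with no background subtraction, offset 10, processed signals, the series matrix, scale normalization, no dye term, division and subtraction, where 3399, 2778, 2740, 2740, 1583, 292, 1490 and 1899 had an unadjusted p under 0.05. It was 140 with median centring (28 rose, 112 fell), 41 with the stricter filter, and 2 (without array 2) to 73 (without array 4) when an array was left out, with 40 without array 1 and 61 without array 3. The repair lists held 1 called gene, and 0 under the same 8 settings that called 0 genes; leaving out an array gave 0 (without array 2) to 2 (without array 3). Among the relatives, Xrcc2 moved to 0.45 with offset 10, Rad51c to 0.28 with processed signals and 0.24 with median centring, and Dmc1 to 0.18 and 0.21. The causes were not tested. The stricter filter kept only Rad51d and Xrcc3 of the 5 relatives. Each member had 1 probe, so probes could not be compared. The log ratio of each array already pairs its CLA and control samples. No paired analysis was possible beyond that, because the labels do not tie samples of different arrays to a shared pool. Signals of the relatives close to background limit what could be seen of them.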
